A study of Homo sapiens with 14 samples.

Results

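The comparison of grape proanthocyanidins (PA) with their vehicle at 12 h of exposure rests on 4 of the 14 small RNA libraries of the series. PANC-1 cells harvested after 12 h of PA at 20 µg/ml gave 2 libraries, and PANC-1 cells harvested after 12 h of DMSO gave the other 2, each pair lettered A and B. PANC-1 is an established human line from a pancreatic ductal carcinoma. It was grown as a monolayer in medium with fetal bovine serum, so both groups are the same line without the stroma of a tumour. The remaining libraries, 2 each of DMSO 0 h, PA 3 h, DMSO 3 h, PA 24 h and DMSO 24 h, served to estimate the spread and to place the values of 12 h among the other times. All 2848 entries of the count table belonged to the comparison. Of these, 2360 had a count in at least 1 of the 4 libraries, and 810 had enough counts to be tested, 682 with a miRNA name and 128 without. The unnamed ones carry a chromosome or contig and a running number (chr8_19924), and what they are was not analysed here. The labels did not say whether A and B came from separate cultures, so p-values measure the spread between these libraries, which may be in part technical.

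MicroRNAs (miRNAs) are short RNAs cut from a hairpin in a longer transcript, and either arm of the hairpin, 5p or 3p, can yield a mature miRNA. They lower the output of messenger RNAs that pair with the seed, bases 2 to 8 of the mature strand, so miRNAs with the same seed share many targets. Several hairpins often lie in one transcript or in the intron of a protein-coding gene and are made together. Proanthocyanidins are chains of flavan-3-ol units from grape seed and skin, and in rat liver they are known for lowering miR-33a and miR-122, miRNAs of lipid metabolism.

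Sequences are shown for the miRNAs whose families moved together, with the seed in capitals, 5′ to 3′, as RefSeq gives them for GRCh38.p14, which held 597 of the 682 tested miRNAs. Among these 597, 57 seeds were shared by at least 2 miRNAs, and 8 had at least 2 members that passed the test described below. In 5 of these 8 every member that passed was higher with PA, in 3 every one was lower, and in 0 they were mixed. Tested miRNAs without a sequence there were left out of the seed groups. Among them, miR-30d-5p fell while miR-30e-5p of the same family rose. With a correction for the GC content of each miRNA in each library, over the 597 with a sequence, 4 of the 8 kept at least 2 passing members, those of miR-27, miR-23, miR-146 and let-7, and 7 of 8 had them among the same miRNAs without it. Higher with PA were miR-27a-3p and miR-27b-3p, miR-23a-3p and miR-23c, miR-19a-3p and miR-19b-3p, miR-15a-5p and miR-424-5p, and miR-130b-3p and miR-301a-3p.
miR-27a-3p: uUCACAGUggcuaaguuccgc
miR-27b-3p: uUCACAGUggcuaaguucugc
miR-23a-3p: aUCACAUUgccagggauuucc
miR-23c: aUCACAUUgccagugauuaccc
miR-19a-3p: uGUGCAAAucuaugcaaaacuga
miR-19b-3p: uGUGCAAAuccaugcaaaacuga
miR-15a-5p: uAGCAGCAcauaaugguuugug
miR-424-5p: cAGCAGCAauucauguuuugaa
miR-130b-3p: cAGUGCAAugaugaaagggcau
miR-301a-3p: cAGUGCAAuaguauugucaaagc

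The 3 seeds whose passing members were lower with PA are those of miR-146a-5p and miR-146b-5p, of let-7c-5p and let-7i-5p, and of miR-1268a and miR-1268b.
miR-146a-5p: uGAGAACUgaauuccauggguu
miR-146b-5p: uGAGAACUgaauuccauaggcug
let-7c-5p: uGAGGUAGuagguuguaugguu
let-7i-5p: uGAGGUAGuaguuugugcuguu
miR-1268a: cGGGCGUGgugguggggg
miR-1268b: cGGGCGUGguggugggggug

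A last set shows miRNAs made from one transcript or one kind of host gene that moved together without sharing a single seed. The miR-183 cluster is one transcript, and miR-33a and miR-33b lie in introns of the paired genes SREBF2 and SREBF1.
miR-96-5p: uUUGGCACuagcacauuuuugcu
miR-183-5p: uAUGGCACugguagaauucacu
miR-182-5p: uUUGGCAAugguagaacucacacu
miR-33a-5p: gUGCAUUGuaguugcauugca
miR-33a-3p: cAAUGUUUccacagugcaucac
miR-33b-3p: cAGUGCCUcggcagugcagccc

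The libraries differed in depth and the 12 h controls stood apart from every other group. Total counts were 1922203 and 2534939 in PA 12 h A and B, and 1710798 and 1032391 in DMSO 12 h A and B, the last being the smallest of the 14. Levels below are in CPM, the count scaled to the library total times a TMM factor. The first principal component of all 14 libraries held 21.5% of the variance and placed the controls of 12 h at 14 (A) and 22.8 (B), with the remaining 12 libraries from -5.60 to 1.17. A and B agreed less in DMSO 12 h (Spearman 0.925 across entries) than in PA 12 h (0.968), and both pairs differed by more than counting noise. Measured as chi-square per degree of freedom, the 12 h pairs had the widest spread of all groups. The DMSO pair reached 83.4 and the PA pair 65.1, while pairs of the other times ranged from 14.3 (DMSO 3 h) to 39.2 (PA 24 h). Because the 12 h controls stood apart, main families and clusters are also given against the mean of DMSO 0, 3 and 24 h. In that contrast the time in culture differs as well. The same groups are also given with each library of 12 h left out. Single miRNAs are given in these ways only in part.

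With PA at 12 h, 51 entries were higher and 39 lower than with DMSO at 12 h. An entry passed when its edgeR quasi-likelihood test had a Benjamini-Hochberg adjusted p under 0.05 over the 810 tested entries, so 90 of 810 passed (11.1%), 6.3% higher and 4.81% lower. Log2 fold changes are PA over DMSO, so a value of 1 is 2-fold higher with PA, and errors are standard errors (SE) of the fit. The 48 miRNAs and 3 unnamed entries that rose did so by 0.57 to 3.26, with a median of 0.91, and 29 of the 51 rose by less than 2-fold. The 29 miRNAs and 10 unnamed entries that fell had a median of -1.27, and 11 of the 39 fell by less than 2-fold. The median over all 810 entries was -0.06.

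The rises were on the whole in more abundant entries than the falls. Of the entries that rose 14 of 51 averaged under 100 CPM over the 4 libraries, against 19 of 39 of those that fell. Summed over the entries that passed, PA libraries differed from DMSO libraries by 91680 CPM in those that rose and by -47730 CPM in those that fell, on the means of the groups. All 90 had no overlap between the PA and the DMSO libraries, a state that 422 of the 810 entries (52.1%) were in. The split depends on the scaling: with upper-quartile factors 26 entries were higher and 42 lower, 38.2% higher against 56.7% with TMM. In bulk libraries, fewer cells that make a miRNA and less of it in each cell cannot be told apart.

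**Figure D1:**
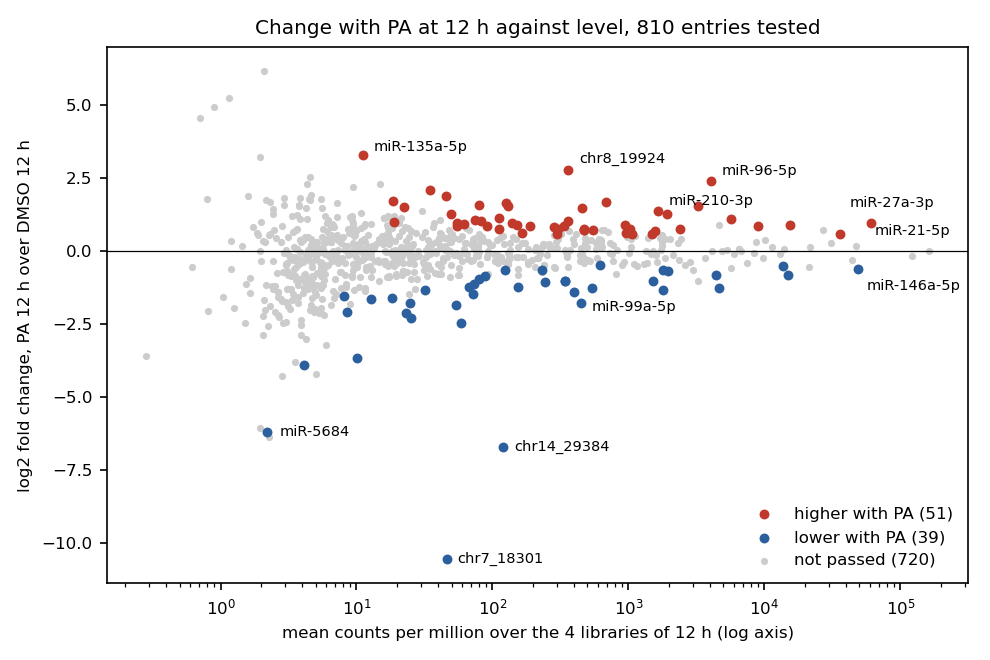
Log2 fold change of PA 12 h over DMSO 12 h (vertical axis) against the mean CPM of the 4 libraries (horizontal log axis), 1 point for each of 810 tested entries. The 51 entries higher with PA (red) lie mostly below 2-fold and reach the abundant miR-27a-3p, the 39 lower ones (blue) include chr7_18301 and miR-5684, whose counts with PA were 0 so that their plotted values depend on the fit, and 720 (grey) did not pass.

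The call counts leaned on single libraries of 12 h. Without PA 12 h A, 30 entries were higher and 12 lower, without PA 12 h B 23 and 11, without DMSO 12 h A 60 and 47, and without DMSO 12 h B 24 and 21. Of the 90 entries, 19 passed with each of the 14 libraries left out in turn, 13 higher and 6 lower. Those named here are miR-27a-3p, miR-23a-3p, miR-96-5p, miR-183-5p, miR-33a-5p, miR-135a-5p, miR-153-3p, miR-188-3p, miR-362-3p, miR-532-3p, miR-377-3p, miR-210-3p and chr8_19924 among the higher, and miR-146b-5p, miR-99a-5p, miR-6715b-3p, chr14_29384 and chr7_18301 among the lower.

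In most of these calls the 12 h controls lay apart from the other control times. For 63 of the 90 entries (70.0%) both DMSO 12 h libraries lay outside the range of the 6 DMSO libraries of 0, 3 and 24 h, as they did for 206 of all 810 (25.4%). Both PA 12 h libraries lay outside that range for 25 of the 90 (27.8%), and for 106 of all 810 (13.1%). Against the mean of DMSO at 0, 3 and 24 h, 5 entries passed (0.617% of 810). Of these, chr8_19924, miR-7704 and miR-30d-3p were higher and chr19_36629 and chr12_27013 lower, and chr8_19924 and miR-7704 were also among the 90. In that contrast the median of the 51 entries was 0.21 and that of the 39 was -0.26, and both contrasts share the PA 12 h libraries. The sign was kept by 68 of the 90, namely 38 of the 51 and 30 of the 39. Over all 810 entries 532 kept it. The 90 were chosen by their difference from DMSO 12 h, which alone makes smaller values here likely. miR-30d-3p, chr19_36629 and chr12_27013 are named here after their values were seen.

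The paired clusters that make miR-23, miR-27 and miR-24 held the largest rise in reads. One cluster, on chromosome 19 (MIR27A at chr19:13836440-13836517, minus strand, GRCh38), overlaps an exon of the lncRNA AC020916.1. The other, on chromosome 9, lies in C9orf3, with MIR23B and MIR27B in an intron and MIR24-1 overlapping an exon. miR-27a-3p, known for repressing the adipogenic factor PPARG, had 77317 and 81601 CPM in PA 12 h A and B, against 45386 and 37415 CPM in DMSO 12 h A and B. Both PA libraries were above both controls, by 0.94 ± 0.14 (adjusted p = 0.000471). In the 6 DMSO libraries of other times it had 66933 to 74426 CPM, below PA 12 h and far above DMSO 12 h, and PA 12 h was 0.19 higher than their mean (adjusted p = 0.486).

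The other members of these clusters followed in size. miR-27b-3p had 41165 and 45296 CPM with PA, against 32592 and 25813 CPM with DMSO, without overlap, a rise of 0.57 ± 0.15 (adjusted p = 0.0225). miR-23a-3p had 18561 and 21069 CPM with PA, against 11008 and 10689 CPM with DMSO, a rise of 0.87 ± 0.15 (adjusted p = 0.00178). The rare miR-23c, from its own hairpin on chromosome X, had 36.3 and 30.3 CPM with PA, against 13.1 and 10.0 CPM with DMSO (1.5 ± 0.31, adjusted p = 0.00629). It is so close in sequence to miR-23a-3p and miR-23b-3p that reads of these could have been counted to it, and the rule for reads matching several entries is not given in the sources used here. The same holds for miR-27a-3p with miR-27b-3p.

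miR-24-3p, whose hairpins stand in the same clusters, had 22367 and 23338 CPM with PA, against 21021 and 20506 CPM with DMSO, and its 0.14 ± 0.13 did not pass (adjusted p = 0.532). miR-23b-3p did not pass either, at 0.40 ± 0.14 (adjusted p = 0.0802). Over the 5 main strands of the clusters, 3 of 5 passed, all higher, and the median was 0.57. Their summed level was 161700 and 173600 CPM with PA, against 111800 and 96100 CPM with DMSO and 144300 to 157800 CPM in the DMSO libraries of other times. Without PA A, PA B, DMSO A or DMSO B of 12 h, 3, 2, 3 and 2 of the 5 passed, and against the other DMSO times 0 did, with a median of 0.19.

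The main strands of the miR-183 cluster all rose. Its miRNAs are known from sensory organs and are often raised in carcinomas, where they are known to repress FOXO transcription factors. miR-96-5p had 5815 and 7726 CPM with PA, against 1639 and 938 CPM with DMSO, so that the lower PA library was well above the higher control (2.39 ± 0.31, adjusted p = 0.000284). miR-183-5p had 2123 and 3291 CPM with PA, against 1268 and 1006 CPM with DMSO (1.25 ± 0.23, adjusted p = 0.0024). miR-182-5p, in the hairpin farthest along (MIR182 at chr7:129770383-129770492, minus strand, between genes), had 1685 and 1866 CPM with PA, against 1275 and 1109 CPM with DMSO (0.57 ± 0.17, adjusted p = 0.0422).

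The 3 miRNAs of this one transcript thus had unequal fitted changes, highest for miR-96-5p and lowest for miR-182-5p, a difference between them that was not tested. Their sum was 9622 and 12880 CPM with PA, against 4181 and 3053 CPM with DMSO. It was 5537 to 8799 CPM in the DMSO libraries of other times, between both groups of 12 h. Against the mean of those times the values were 0.73 for miR-96-5p, 0.74 for miR-183-5p and 0.25 for miR-182-5p, and 0 of 3 passed. Without PA A, PA B, DMSO A or DMSO B of 12 h, 2, 2, 3 and 2 of the 3 passed, and miR-182-5p was the one that did not. It did not pass with GC correction either (0.40, adjusted p = 0.122).

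The miR-33 miRNAs, which are known for repressing the cholesterol exporter ABCA1, rose from both SREBF genes. MIR33A lies in an intron of SREBF2 at chr22:41900944-41901012 (plus strand), and MIR33B in an intron of SREBF1 at chr17:17813836-17813931 (minus strand). SREBF2 and SREBF1 code for the SREBP factors that switch on the genes of sterol and fatty acid synthesis. miR-33a-5p had 205 and 174 CPM with PA, against 67.1 and 54.6 CPM with DMSO, without overlap (1.63 ± 0.26, adjusted p = 0.000775). The other arm, miR-33a-3p, had 32.3 and 25.1 CPM with PA, against 9.67 and 7.28 CPM with DMSO (1.72 ± 0.39, adjusted p = 0.0107). miR-33b-3p had 75.6 and 62.1 CPM with PA, against 18.8 and 40.9 CPM with DMSO, where the controls differed most between A and B (1.25 ± 0.33, adjusted p = 0.0281).

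The remaining strand, miR-33b-5p, with the seed of miR-33a-5p, had a value of 1.14 ± 0.44 and did not pass (adjusted p = 0.11). The median over the 4 strands was 1.44. Without PA A, PA B, DMSO A or DMSO B of 12 h, 1, 2, 2 and 2 of the 4 passed. The summed level was 328 and 270.0 CPM with PA, against 102 and 107.3 CPM with DMSO, and 187 to 280 CPM in the DMSO libraries of other times. Against the mean of those times the median was 0.44 and 0 of 4 passed. miR-122-5p, the liver miRNA, had 0 and 1 counts with PA and 0 in both DMSO 12 h libraries.

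**Figure D2:**
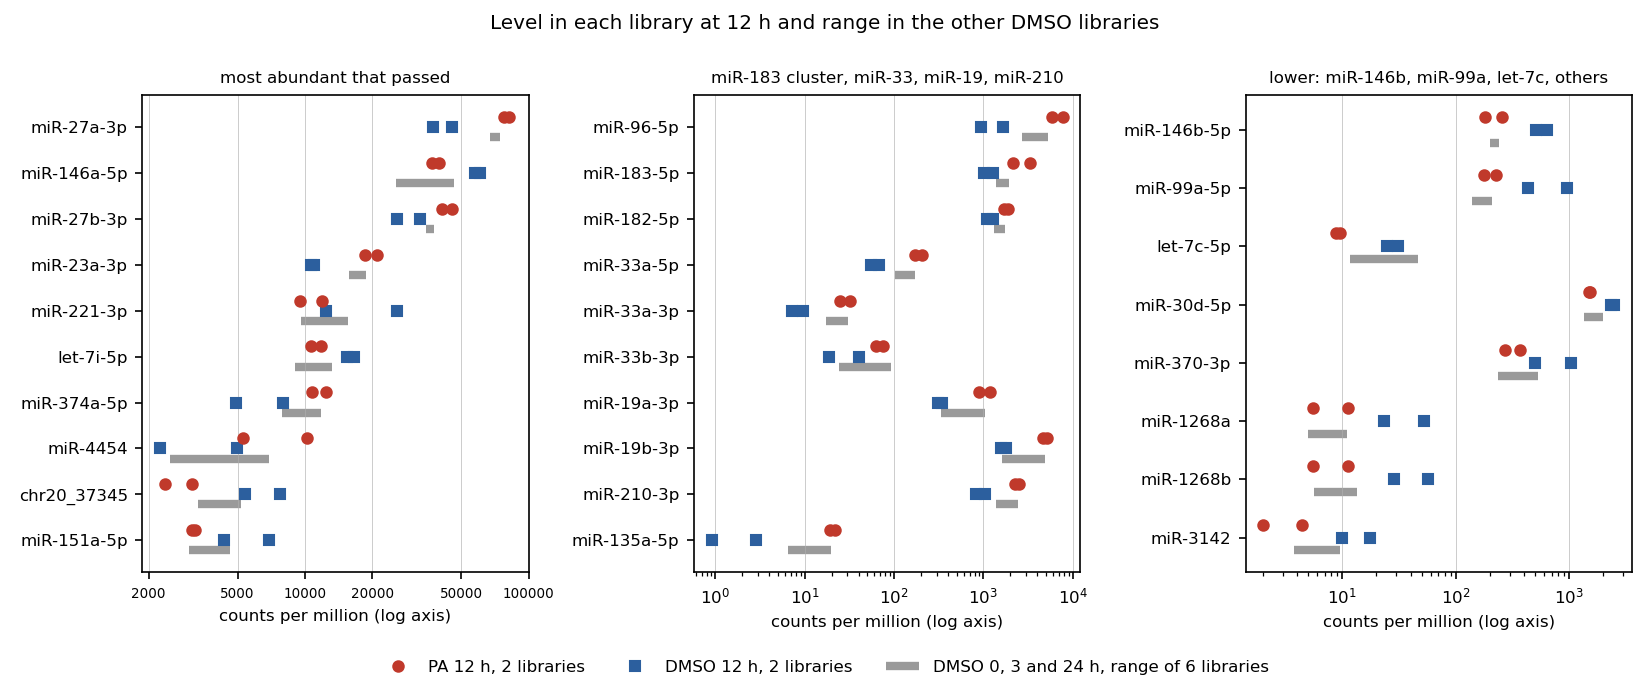
CPM on log axes of miRNAs and 1 unnamed entry that passed, with PA 12 h A and B (red circles), DMSO 12 h A and B (blue squares) and the range of the 6 DMSO libraries of 0, 3 and 24 h (grey bars), in 3 panels. For miR-27a-3p, miR-96-5p and miR-33a-5p the grey bar lies between the circles and the squares or beside the circles, and for miR-146b-5p and miR-99a-5p it lies at the circles, below the squares.

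The cluster in introns of CLCN5 on the X chromosome had the most members that rose. CLCN5 codes for a chloride and proton exchanger of endosomes, and the hairpins MIR532, MIR188, MIR500A and MIR362 lie between chrX:50003148-50003238 and chrX:50008964-50009028, plus strand. Of 12 tested strands in the list, 7 were higher and 0 lower, with a median of 0.73. The list left out miR-660-3p, which had -0.03 and did not pass. miR-362-3p had 198 and 193 CPM with PA, against 78.5 and 54.6 CPM with DMSO (1.54 ± 0.23, adjusted p = 0.000471). miR-188-3p had 108 and 132 CPM with PA, against 49.5 and 30.9 CPM with DMSO (1.56 ± 0.26, adjusted p = 0.00138). Both had PA libraries above 100 CPM and controls below 80.

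The other 5 that rose were miR-532-3p (0.96), miR-500a-5p (0.84), miR-660-5p (0.81), miR-500a-3p (0.73) and miR-362-5p (0.72). miR-188-5p, the other arm of MIR188, had -0.11 ± 0.37 and did not pass. The 12 strands summed to 3501 and 3971 CPM with PA, against 2409 and 2448 CPM with DMSO, and to 3108 to 3287 CPM in the DMSO libraries of other times. Against the mean of those times the median was 0.06 and 0 passed, and for miR-362-3p the value was -0.02. Without PA A, PA B, DMSO A or DMSO B of 12 h, 6, 4, 5 and 5 of the 12 passed. With GC correction miR-500a-5p and miR-362-5p were lost (adjusted p = 0.0556 and 0.0728).

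The miR-19 pair of the miR-17-92 transcript rose, and the other tested members did not pass. The cluster is known as oncogenic, and MIR19A and MIR19B1 overlap an exon of MIR17HG on chromosome 13. miR-19b-3p had 4607 and 5137 CPM with PA, against 1558 and 1779 CPM with DMSO (1.55 ± 0.35, adjusted p = 0.0114). miR-19a-3p had 901 and 1192 CPM with PA, against 310.0 and 346 CPM with DMSO (1.67 ± 0.40, adjusted p = 0.0177). The 11 tested members of the cluster and its paralogs had a median of 0.01, with 2 higher and 0 lower. Each of both calls was lost when any 1 library of 12 h was left out, with adjusted p from 0.0795 to 0.197 for miR-19a-3p and from 0.0883 to 0.186 for miR-19b-3p. Both were also lost with GC correction, with adjusted p of 0.0691 for miR-19a-3p and 0.055 for miR-19b-3p. In the other DMSO times miR-19b-3p had 1631 to 4861 CPM, a range that spans the controls and nearly reaches PA.

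In the family of miR-15 and miR-16, known for repressing cyclins and BCL2, miR-424-5p (0.88 ± 0.21, adjusted p = 0.0168) and miR-15a-5p (0.59 ± 0.16, adjusted p = 0.0307) rose of 7 tested. The most abundant of them, miR-16-5p, had 9758 and 9395 CPM with PA, against 7308 and 8140 CPM with DMSO, and did not pass (0.31 ± 0.15, adjusted p = 0.215). All 7 had positive values, with a median of 0.59. In the miR-130 family miR-301a-3p (1.03 ± 0.31, adjusted p = 0.0409) and miR-130b-3p (0.63 ± 0.17, adjusted p = 0.0342) rose of 4 tested members of the list. Against the other DMSO times the medians of these families were -0.05 and -0.13. Without PA A, PA B, DMSO A or DMSO B of 12 h, 0, 1, 2 and 1 passed in the first family and 0, 0, 0 and 1 in the second. With GC correction all 4 of these calls were lost, with adjusted p from 0.0556 to 0.102. A further member of the miR-130 family, miR-301b, was tested but not matched by the list, and it is in none of these counts and medians. It also passed as higher, with values from 0.83 to 1.09 when 1 library was left out.

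Among single miRNAs that rose, miR-210-3p, the miRNA that HIF-1 is known to induce in hypoxia, had 2507 and 2275 CPM with PA, against 1040 and 819 CPM with DMSO (1.36 ± 0.19, adjusted p = 0.000353). In DMSO at other times it had 1379 to 2419 CPM, and PA 12 h was 0.45 above their mean (adjusted p = 0.2). Its other arm, miR-210-5p, stayed below 20 CPM in the 4 libraries and did not pass. The largest fitted rise was that of miR-135a-5p, with 21.7 and 19.1 CPM with PA against 2.84 and 0.909 CPM with DMSO (3.26 ± 0.52, adjusted p = 0.000775). In the control library B of 12 h that level was a single count, and in the other DMSO libraries it was 6.57 to 19.7 CPM. miR-153-3p, known in neurons, had 60.5 and 53.8 CPM with PA, against 20.5 and 4.55 CPM with DMSO, and 43.8 to 68.8 CPM in DMSO at other times (2.07 ± 0.41 over DMSO 12 h, adjusted p = 0.0044). Against the mean of those other times miR-153-3p had a value of 0.11.

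miR-34a-5p, a direct target of p53, had 155 and 154 CPM with PA, against 89.9 and 50.02 CPM with DMSO (1.12 ± 0.25, adjusted p = 0.0108), and did not pass without DMSO 12 h B. miR-374a-5p, the most abundant rise outside these families, had 10753 and 12451 CPM with PA, against 8007 and 4910 CPM with DMSO (0.84 ± 0.23, adjusted p = 0.0342). With 1 library left out the value of miR-374a-5p ran from 0.55 to 1.25, lowest without DMSO 12 h B. miR-4454, whose sequence lies in a transfer RNA, had 5296 and 10171 CPM with PA, against 4986 and 2248 CPM with DMSO. PA A was close to DMSO A, and PA B stood above all 3 others (1.10 ± 0.34, adjusted p = 0.0498; 0.0779 with GC correction). The 19 listed entries that lie in tRNA, rRNA, U2 or snoRNA, whose reads can be fragments of these RNAs, summed to 5388 and 10250 CPM with PA. With DMSO they summed to 5104 and 2346 CPM, and most of each sum was miR-4454. Of 10 tested 1 passed, and 4 had positive and 6 negative values, with a median of -0.58. The part of these 19 entries in the other results was not tested.

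chr8_19924 and miR-7704 were the 2 entries of the 90 that also stood out against the other control times. chr8_19924 had 635 and 630 CPM with PA, against 82.5 and 103 CPM with DMSO and 21.2 to 122 CPM in DMSO at other times. PA 12 h was thus above every control library, by 2.78 ± 0.34 over DMSO 12 h (adjusted p = 0.000171) and 3.53 over the other times (adjusted p = 1.8e-07). miR-7704 had 46.4 and 96.0 CPM with PA, against 22.2 and 16.4 CPM with DMSO and 4.68 to 11.8 CPM in DMSO at other times. Its rise was 1.87 ± 0.49 over DMSO 12 h (adjusted p = 0.0272), a call lost without PA 12 h B or either DMSO 12 h library, and 3.09 over the other times (adjusted p = 0.000217). The hairpin of miR-7704 (chr2:176188843-176188901, plus strand) overlaps an exon of HOXD1 and, on the opposite strand, an exon of HAGLR, and reads from these transcripts cannot be told apart from it.

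Among the falls, miR-146a and miR-146b led by abundance. NF-kB is known to induce miR-146a, which represses TRAF6 and IRAK1 in turn. miR-146a-5p had 37172 and 39915 CPM with PA, against 60503 and 57798 CPM with DMSO, a fall of 0.62 on the log2 scale (SE 0.14, adjusted p = 0.0113). miR-146b-5p, from another chromosome but with the same seed, had 179 and 255 CPM with PA, against 509.7 and 638 CPM with DMSO (-1.40 ± 0.20, adjusted p = 0.000471). In DMSO at other times miR-146a-5p had 25597 to 46303 CPM and miR-146b-5p 199 to 242 CPM, ranges at the level of PA 12 h and below DMSO 12 h. Against their mean the values were 0.17 for miR-146a-5p, of the opposite sign, and -0.01 for miR-146b-5p.

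The other strands around miR-146 did not all follow. miR-146a-3p, the passenger arm, had 88.7 and 113 CPM with PA, against 61.4 and 118 CPM with DMSO, so that the groups overlapped (0.19 ± 0.26, adjusted p = 0.705). miR-155-5p, another NF-kB miRNA, was at 23.2 and 13.9 CPM with PA, against 25.6 and 17.3 CPM with DMSO, and did not pass (-0.24 ± 0.42, adjusted p = 0.774). miR-3142, whose hairpin lies in an intron of MIR3142HG, the lncRNA whose exon overlaps MIR146A at chr5:160485352-160485450, was rare and lower, at 2.02 and 4.38 CPM with PA against 17.6 and 10.0 CPM with DMSO (-2.09 ± 0.62, adjusted p = 0.0418). The call for miR-146a-5p was lost without either PA library (adjusted p = 0.119 and 0.0744), and that for miR-146b-5p with none of the 14 left out.

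let-7c and miR-99a share a host and were both lower. Their hairpins lie in introns of MIR99AHG on chromosome 21 (MIR99A at chr21:16539089-16539169, plus strand). let-7 is known for repressing RAS and HMGA2, and miR-99 for repressing MTOR. miR-99a-5p had 178 and 226 CPM with PA, against 949 and 432 CPM with DMSO (-1.77 ± 0.27, adjusted p = 0.00069), and 138 to 210 CPM in DMSO at other times. let-7c-5p had 9.58 and 8.76 CPM with PA, against 30.7 and 24.5 CPM with DMSO (-1.60 ± 0.49, adjusted p = 0.0468), and 11.8 to 46.0 CPM in DMSO at other times. miR-99a-5p thus set DMSO 12 h apart from the other controls, and let-7c-5p did not.

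Of the 11 tested miRNAs with the let-7 seed, let-7c-5p and let-7i-5p passed, both lower, and 9 of 11 had a negative value. let-7i-5p had 11839 and 10606 CPM with PA, against 15395 and 16622 CPM with DMSO, a fall of 0.51 (SE 0.15, adjusted p = 0.0373), and 0.04 above the pooled DMSO of other times. The other arm, let-7i-3p, had a positive value that did not pass (0.41 ± 0.17, adjusted p = 0.125). miR-100-5p, abundant and with the seed of miR-99a-5p, had 98119 and 129018 CPM with PA, against 130736 and 126019 CPM with DMSO, overlapped between the groups and did not pass (-0.18 ± 0.15, adjusted p = 0.479). Without PA A, PA B, DMSO A or DMSO B of 12 h, 0, 0, 1 and 0 let-7 members passed.

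miR-221-3p, known for repressing the cell cycle inhibitor CDKN1B, had 11931 and 9530 CPM with PA, against 12468 and 25679 CPM with DMSO (-0.83 ± 0.25, adjusted p = 0.0468). DMSO A was close to PA A, and without DMSO 12 h B the value was -0.21 (adjusted p = 0.602). miR-30d-5p had 1490 and 1515 CPM with PA, against 2340 and 2502 CPM with DMSO (-0.69 ± 0.14, adjusted p = 0.00617), while miR-30e-5p of the same family rose (0.75 ± 0.20, adjusted p = 0.0243). miR-151a-5p had 3237 and 3113 CPM with PA, against 4334 and 6943 CPM with DMSO (-0.83 ± 0.23, adjusted p = 0.0307). Without DMSO 12 h B, the shallowest library, miR-151a-5p had an adjusted p of 0.25 and miR-30e-5p one of 0.158. miR-30d-5p passed without it (adjusted p = 0.0288) and was lost without PA A or PA B (adjusted p = 0.0883 and 0.0812). miR-151a-5p was lost without either PA library too, and miR-30e-5p without PA B. With GC correction miR-221-3p and miR-30e-5p each had an adjusted p of 0.0515.

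The largest falls were in rare or unnamed entries, and DMSO 12 h was the group out of line for several of them. chr7_18301 had 0 counts in both PA libraries, against 60.3 and 125 CPM with DMSO, which makes it at least 139-fold lower with a floor of 3 counts over the PA group. In DMSO at other times it had 0 to 0.382 CPM. chr14_29384 had 2.52 and 1.99 CPM with PA, against 155 and 323 CPM with DMSO (-6.70 ± 0.61, adjusted p = 1.3e-05), and 0.382 to 4.93 CPM in DMSO at other times. Both entries were thus present in DMSO 12 h A and B and nearly absent from the other 6 control libraries.

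miR-1268a and miR-1268b, which share most of their sequence, had 5.55 and 11.2 CPM each with PA, against 23.3 and 52.7 CPM (miR-1268a) and 28.4 and 56.4 CPM (miR-1268b) with DMSO. Their falls were -2.13 ± 0.50 (adjusted p = 0.0124) and -2.29 ± 0.44 (adjusted p = 0.00411), and reads of one cannot be told apart from the other. With GC correction miR-1268a was lost (-1.38, adjusted p = 0.0691) and miR-1268b was not. chr17_33942 fell by 2.46 (adjusted p = 0.0107) with 8.57 and 26.3 CPM with PA, against 58.0 and 141 CPM with DMSO. miR-4695-3p and miR-3960 had at most 2.52 CPM with PA, with fitted values of -3.68 and -3.89, and miR-5684, with 0 counts in both PA libraries against 5.12 and 3.64 CPM with DMSO, was at least 6.56-fold lower. miR-6715b-3p had 18.2 and 28.3 CPM with PA, against 89.9 and 78.2 CPM with DMSO (-1.85 ± 0.32, adjusted p = 0.0017). Floors cover counting error only, since PCR copies of a read do not count as separate molecules.

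chr20_37345, the most abundant unnamed entry that passed, had 3119 and 2370 CPM with PA, against 7721 and 5394 CPM with DMSO (-1.26 ± 0.25, adjusted p = 0.00617). Its other control libraries lay between, at 3324 to 5165 CPM. The entries chr4_10821 and KI270790.1_41873 had identical counts in every library and fell alike (-1.04 ± 0.26, adjusted p = 0.018), so they stand for the same reads counted under both names.

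Of the 10 most abundant entries 3 passed, miR-27a-3p, miR-27b-3p and miR-146a-5p, and miR-21-5p, the most abundant, did not. miR-21-5p, the oncogenic miRNA that represses PDCD4, had 169910 and 153970 CPM with PA, against 185261 and 142163 CPM with DMSO, so that the groups overlapped (-0.02 ± 0.15, adjusted p = 0.977). Its other arm, miR-21-3p, had 24683 and 41869 CPM with PA, against 25445 and 15358 CPM with DMSO, also overlapping (0.71 ± 0.28, adjusted p = 0.122). miR-29a-3p (0.15), miR-22-3p (-0.33) and miR-10a-5p (0.27) did not pass either.

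**Figure D3:**
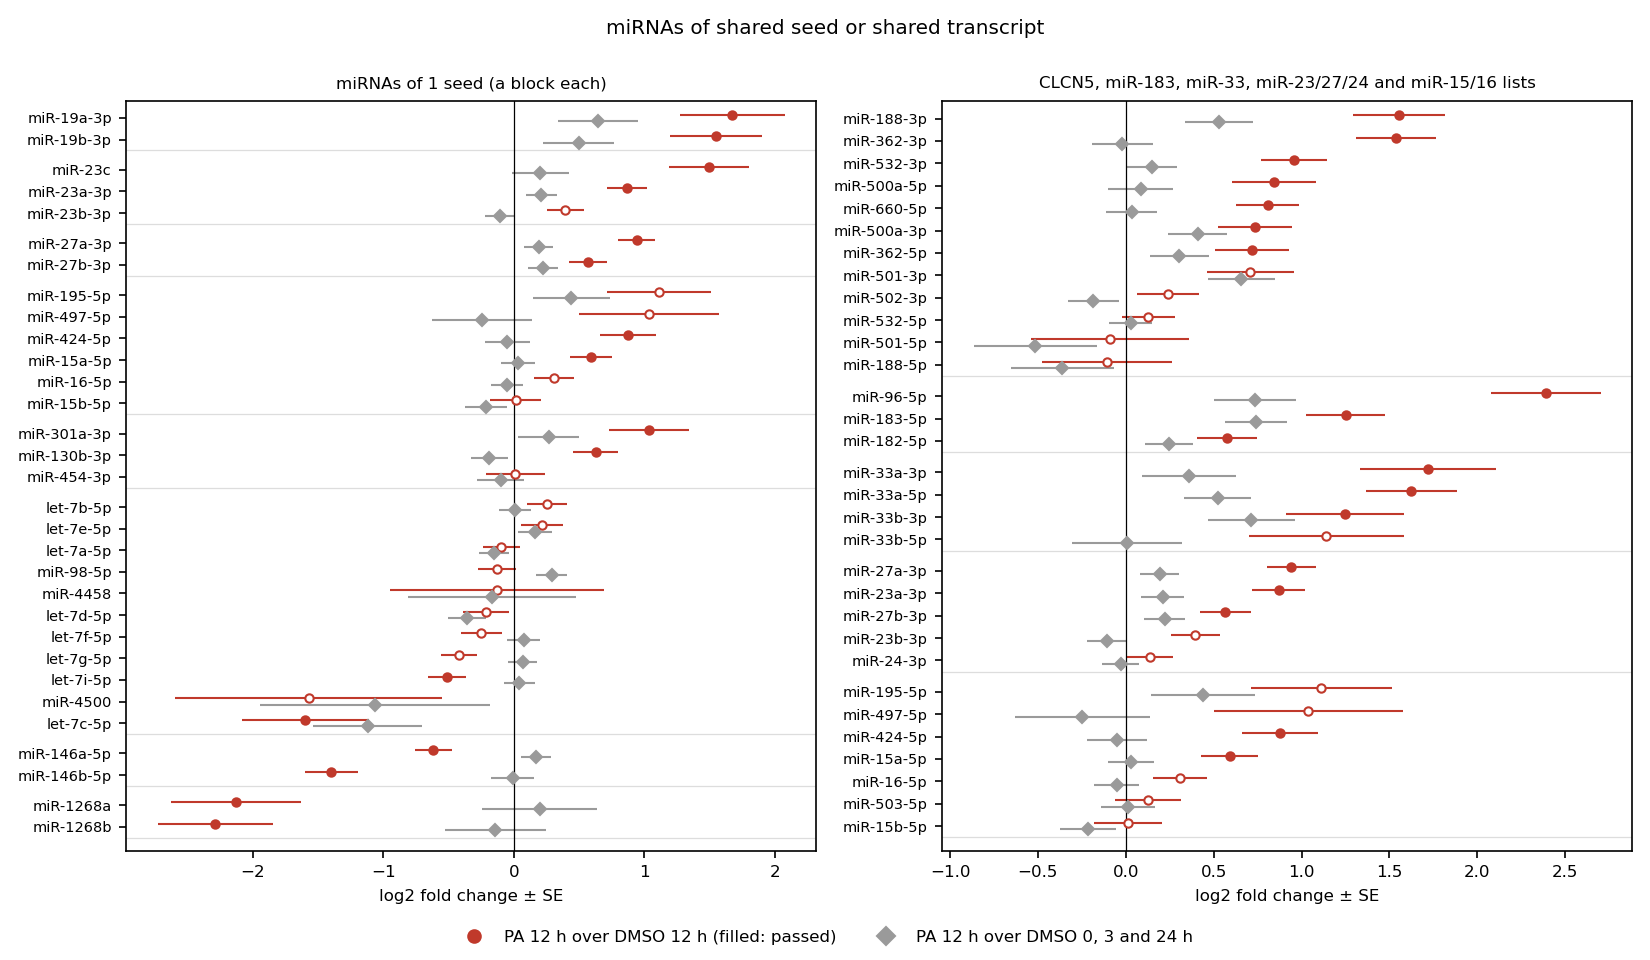
Log2 fold change with SE (horizontal axis) of PA 12 h over DMSO 12 h (red circles, filled where the entry passed) and of PA 12 h over the mean of DMSO 0, 3 and 24 h (grey diamonds), for miRNAs of 8 shared seeds (left) and 5 lists of shared transcripts or families (right). The red points of the miR-27, miR-19, miR-183, miR-33 and CLCN5 groups lie mostly right of 0 and those of the miR-146 and miR-1268 pairs left of it, while no grey diamond of these groups passed.

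Members of the remaining lists passed in small numbers. Of 53 tested strands listed for the imprinted cluster at 14q32, 2 were higher, miR-377-3p (1.46 ± 0.21, adjusted p = 0.000441) and miR-494-3p (0.85 ± 0.22, adjusted p = 0.0243). Lower were 3, miR-370-3p (-1.27), miR-369-3p (-0.67) and miR-411-3p (-0.66), and the median of the 53 was 0.12. Over all 810 entries 6.3% were higher and 4.81% lower, so these calls are not read as a trait of the cluster. With 1 library left out miR-377-3p ran from 1.42 to 1.53 and miR-494-3p from 0.74 to 0.99. miR-370-3p ran from -1.69 to -0.65, miR-369-3p from -0.89 to -0.39 and miR-411-3p from -0.80 to -0.44. miR-377-3p had 675 and 664 CPM with PA, against 253 and 235 CPM with DMSO, and 391 to 723 CPM in DMSO at other times. Single members rose in the miR-29 family (miR-29b-3p, 0.58), the miR-148 and miR-152 family (miR-152-3p, 0.74) and the miR-103 and miR-107 family of the PANK genes (miR-107, 0.73). With GC correction miR-29b-3p and miR-152-3p were lost (adjusted p = 0.202 and 0.0522). In the miR-181 and the miR-192, miR-194 and miR-215 lists 0 members passed by edgeR.

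Markers of other cell types gave the following levels. The epithelial miR-200 family summed to 53.4 and 85.2 CPM with PA, against 55.7 and 50.02 CPM with DMSO, so these epithelial markers were low in both, and 0 of 5 passed. The fibroblast markers miR-143-3p, miR-145-5p, miR-199a-3p, miR-199a-5p and miR-214-3p summed to 56.0 and 43.4 CPM with PA, against 13.1 and 15.5 CPM with DMSO, and 13.4 to 306 CPM in DMSO at other times, with 0 of 4 tested passing. The endothelial pair miR-126-3p and miR-126-5p summed to 1271 and 1029 CPM with PA, against 806 and 948 CPM with DMSO, and did not pass. Of the red blood cell markers miR-451a and miR-144-5p had 0 counts in all 4 libraries. miR-486-5p had 798 and 1254 counts with PA, against 949 and 650 with DMSO, and did not pass. miR-144-3p had 7 and 8 counts with PA and 0 in both DMSO libraries. The acinar miR-216a-5p and miR-217 had 0 counts in all 4 libraries, and miR-216b-5p had 8 and 6 with PA, against 8 and 2 with DMSO. The haematopoietic markers summed to 4.03 and 3.98 CPM with PA, against 4.55 and 6.37 CPM with DMSO, and the islet marker miR-375 had 3.03 and 6.37 CPM, against 5.69 and 7.28 CPM. The part of the fibroblast and endothelial levels in the other results was not tested.

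The arms of one hairpin had the same sign more often than not, but mostly did not pass together. Both arms were tested for 159 hairpins, and in 97 (61.0%) they had the same sign, where 46.2% of all entries had a positive value. The latter share is not the rate at which unrelated arms would agree, which was not computed. Strands made from several loci, such as miR-16-5p, stand under more than 1 of the 159 hairpins. At least 1 arm passed in 41 hairpins, with the arms of the same sign in 23 and of opposite sign in 18, and in 36 of the 41 the other arm did not pass. Both arms passed in 5 hairpins, MIR33A, MIR362, MIR500A, MIR9-1 and MIR301A, and in 4 of these they moved the same way. With GC correction both arms still passed in 1 of the 5, MIR33A. The exception to the shared direction was MIR301A, in an intron of SKA2, whose miR-301a-3p rose (113 and 107.1 CPM with PA, against 42.7 and 66.4 CPM with DMSO) while miR-301a-5p fell (16.1 and 19.5 CPM with PA, against 36.4 and 55.5 CPM with DMSO; -1.34 ± 0.31, adjusted p = 0.0121). Leaving out either PA library ended both calls. The call of miR-301a-5p was also lost without DMSO 12 h B, and that of miR-301a-3p without DMSO 12 h A. The arms of MIR9-1, which come from several loci, are named after their values were seen.

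The change with PA ran lower in miRNAs richer in G and C. Over the 597 miRNAs with a sequence, the median log2 fold change was 0.35 where G and C made up to 35% of the bases (73 miRNAs), 0.15 from 35 to 45% (151), -0.00 from 45 to 55% (215), -0.21 from 55 to 65% (103) and -0.45 above 65% (55). Across miRNAs, which are not replicates and share the 4 libraries, Spearman's correlation was -0.29 and Pearson's -0.263. With at least 100 CPM (191 miRNAs) these were -0.284 and -0.261. Against the pooled DMSO of other times the medians of the same classes ran from 0.10 to -0.09.

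In each library, the median log2 deviation from the mean of all libraries was taken over the 224 miRNAs of at most 45% GC, minus that over the 158 miRNAs above 55%. This gap was 0.109 and 0.155 in PA 12 h A and B, against -0.19 and -0.456 in DMSO 12 h A and B, and -0.151 to 0.126 in the other 10 libraries. Over these miRNAs both controls of 12 h were below every other library, and the shallowest was lowest. Over miRNAs of at least 100 CPM the gap was 0.113 and 0.0907 in PA 12 h A and B, against -0.149 and -0.442 in DMSO 12 h A and B. There DMSO 12 h B was still lowest, but DMSO 12 h A lay above PA 24 h B (-0.206) and DMSO 0 h B (-0.16). The difference of the group means over all of them was 0.455. The miRNAs that rose had a median GC share of 45.5% (44 with a sequence), those that fell 50% (25), and all tested 47.6%. With a correction for GC in each library 54 of 597 miRNAs passed, 28 higher and 26 lower, against 63 of the same 597 without it, and 46 of the 54 were among the 90. Of the 69 entries of the 90 that have a sequence 23 were thus lost, 9 of them also in the test of the 597 without correction.

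**Figure D4:**
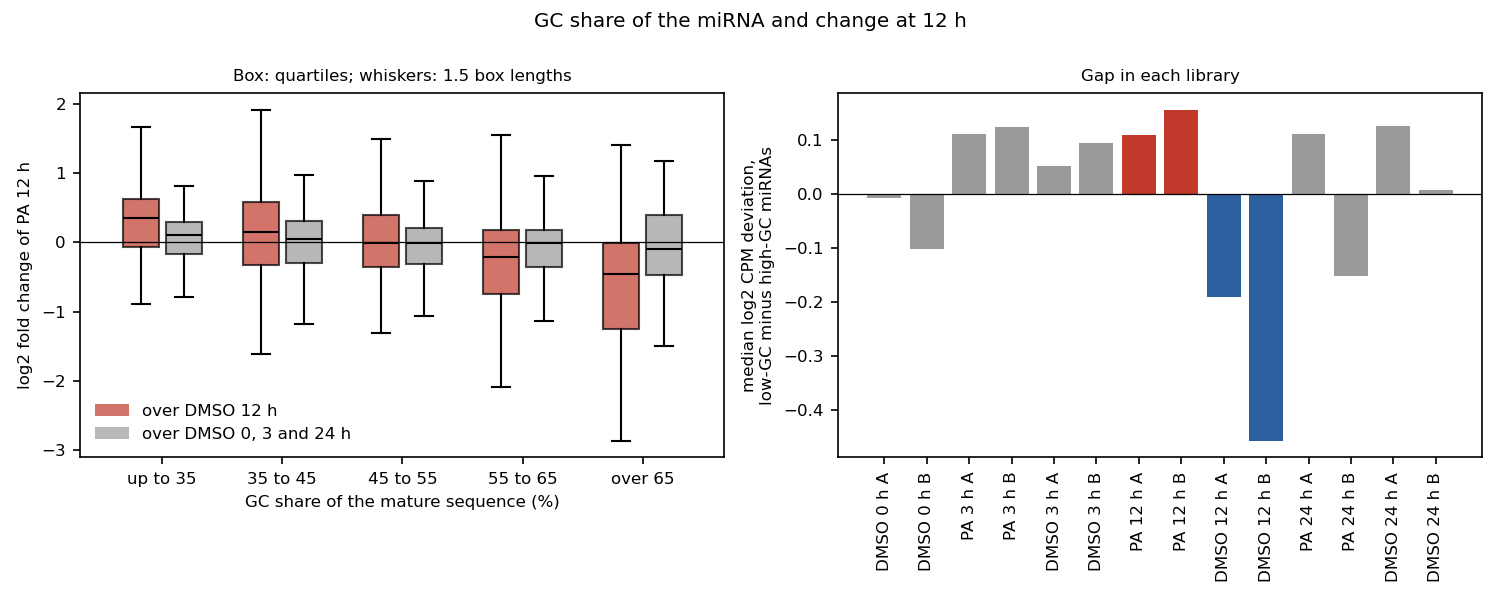
Left, log2 fold change of PA 12 h over DMSO 12 h (red) and over the mean of DMSO 0, 3 and 24 h (grey) by the GC share of the mature miRNA (boxes are quartiles, whiskers 1.5 box lengths), 597 miRNAs. Right, the low-GC minus high-GC gap in median log2 CPM deviation in each of the 14 libraries: PA 12 h (red) lies at 0.109 and 0.155 and DMSO 12 h (blue) at -0.19 and -0.456, lowest when all tested miRNAs are used.

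The effect of PA at 12 h was set against that at 3 h and 24 h, which share no library with it. The difference between 12 h and 24 h passed for 70 of 810 entries (8.64%), 29 with a higher (3.58%) and 41 with a lower value (5.06%) at 12 h, or 55 higher and 38 lower with total counts as the scaling. That between 12 h and 3 h passed for 10 (1.23%), 7 higher (0.864%) and 3 lower (0.37%). Of the 90 entries of 12 h, 35 differed from 24 h and 10 from 3 h. The median of the 51 that rose at 12 h was 0.05 at 3 h, 0.91 at 12 h and 0.10 at 24 h, and that of the 39 that fell was -0.11, -1.27 and -0.14. Over all 810 entries it was -0.01, -0.06 and -0.01. The 51 and the 39 were chosen by their values at 12 h, so larger medians at that time are built in.

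At 3 h 2 of all 810 entries passed (0.247%), chr8_19924 and miR-7704, both higher and both among the 90. At 24 h 54 of all 810 passed (6.67%), 11 of them among the 90. Of these, 5 passed in the same direction: miR-27a-3p (0.55 ± 0.14, adjusted p = 0.0246), miR-6715b-3p (-1.27), chr8_19924 (8.60), chr13_28163 (2.85) and miR-7704 (5.68). A further 6 passed at 24 h in the opposite direction, among them miR-99a-5p (0.96 ± 0.27, adjusted p = 0.044) and miR-6750-5p (3.50), both lower at 12 h, and miR-339-5p (-0.67), higher at 12 h. chr13_28163, miR-6750-5p and miR-339-5p are named after their values were seen.

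The 10 entries that differed between 12 h and 3 h were miR-96-5p, miR-33a-5p, miR-135a-5p, miR-210-3p, miR-362-3p, miR-27a-3p, miR-377-3p, miR-146b-5p, miR-99a-5p and chr14_29384. All 10 are among those whose call at 12 h held with each library left out. The difference contains the 12 h effect itself, so this overlap is in part built in and does not show that the difference held. How the number passing the difference moved with single libraries is given in the closing section. For miR-96-5p the values were -0.11 at 3 h, 2.39 at 12 h and 0.50 at 24 h, for miR-33a-5p -0.07, 1.63 and 0.49, and for miR-27a-3p -0.01, 0.94 and 0.55. For miR-146b-5p they were -0.05, -1.40 and 0.07. chr8_19924 was higher at all 3 times, by 2.63, 2.78 and 8.60, and its effect at 12 h was below that at 24 h by 5.82 ± 0.49 (adjusted p = 4.46e-06).

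**Figure D5:**
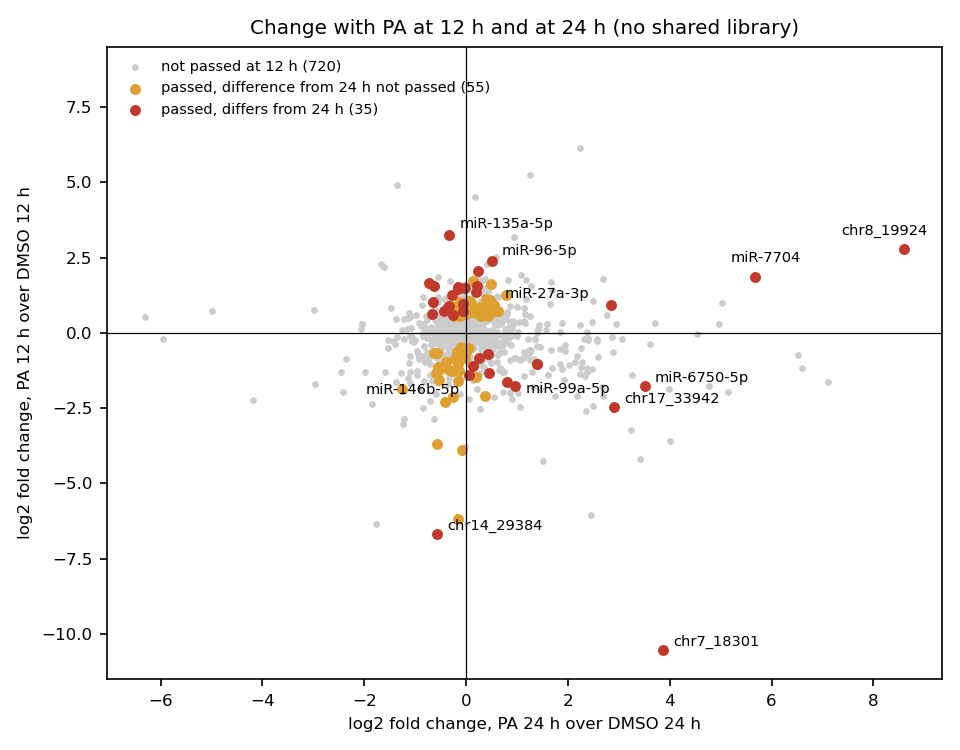
Log2 fold change of PA over DMSO at 12 h (vertical axis) against that at 24 h (horizontal axis), 1 point for each of 810 entries, with no library shared between the axes. Grey points did not pass at 12 h (720), orange points passed at 12 h without a passing difference from 24 h (55), and red points passed at 12 h and differed from 24 h (35); most coloured points lie near 0 on the 24 h axis, and chr8_19924, miR-7704 and miR-27a-3p are higher at both times.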

How the data were processed

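Counts of reads for each mature miRNA entry, as the authors deposited them, are whole and not normalized; a TPM table was also deposited and was not used here. The submitters' processing notes name GRCh38 with the tools bcl2fastq, Bowtie and edgeR. Versions, roles, the rule for reads matching several entries and the use of strand are not given in the sources used here. Sequencing of total RNA was on a NextSeq 500 with paired ends, per the labels' protocols.

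The tests used edgeR 4.0.16 under R 4.3.3 (glmQLFit, robust, glmQLFTest, TMM) in one fit of all 14 libraries by group, after filterByExpr with its minimum count at 10 and minimum total at 15. Adjustment was by Benjamini-Hochberg over 810 entries, with 0.203 as common biological coefficient of variation. The pooled spread means that no p-value rests on the 4 libraries alone, and 2 libraries a group cannot reach an exact permutation p below 0.333. Because both 12 h pairs differed more than the pairs of other times, pooling may make errors and p-values at 12 h too small. A fit of the 4 libraries alone gave 33 calls, but it also has fewer libraries from which to estimate the spread. The test was checked on simulated counts: 50% of entries changed by 1 on the log2 scale and 93% of those changed by 2 were recovered, with 4 of 570 unchanged entries called. In these counts the 12 h controls were not set apart and no group had a wider spread. The check therefore does not measure false calls from either.

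Entries were named by rule: the 10 largest rises and falls that passed without overlap, the 10 most abundant that passed, the 10 most abundant of all, members of the miRNA lists that passed, other arms and same-seed miRNAs of the first sets, and the 5 smallest p of each difference between times. The members, lists and rule were chosen with earlier results of these data known. Same-letter libraries did not deviate together (21 pairs, r -0.165 to 0.114), so A and B were not treated as pairs. Sequences are from RefSeq (GRCh38.p14) and host genes from GENCODE. DESeq2 1.42.0 and the other alternatives are in the closing section. Figures were drawn with matplotlib 3.10.9 in Python 3.11.15.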

Additional observations from a re-analysis of the deposited data

Results flagged for a closer look

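Each result below is a difference between the PA effect at 12 h and that at another time (log2 scale) that passed the edgeR test of the difference over 810 entries; no explanation was tested. Higher at 12 h than at 24 h were the effects on miR-135a-5p (3.60), miR-19a-3p (2.41), miR-19b-3p (2.17), miR-96-5p (1.89), miR-153-3p (1.84), miR-362-3p (1.70), miR-377-3p (1.62), miR-33b-3p (1.52), miR-188-3p (1.34), miR-424-5p (1.24), miR-210-3p (1.17), miR-532-3p (1.02), miR-15a-5p (0.86) and miR-107 (0.79).

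Lower at 12 h than at 24 h were the effects on chr7_18301 (-14.40, a fitted value that depends on counts of 0), chr14_29384 (-6.13), chr8_19924 (-5.82), chr17_33942 (-5.37), miR-7704 (-3.82), chr1_2271 (-3.38), miR-99a-5p (-2.74), chr4_10821 and its identical partner KI270790.1_41873 (-2.43 each), miR-146b-5p (-1.46), miR-30d-5p (-1.11) and miR-151a-5p (-1.08). chr1_2271 itself did not pass at 12 h, with 13.6 and 15.5 CPM with PA against 29.6 and 20.0 CPM with DMSO.

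Higher at 12 h than at 3 h were the effects on miR-135a-5p (2.99), miR-96-5p (2.51), miR-33a-5p (1.70), miR-362-3p (1.68), miR-377-3p (1.56), miR-210-3p (1.21) and miR-27a-3p (0.95). Lower at 12 h than at 3 h were those on chr14_29384 (-6.72), miR-99a-5p (-1.74) and miR-146b-5p (-1.35).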

How the results depend on the processing

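The count of 90 at 12 h stayed within 1.5 times under total counts (87), median-ratio (85) and upper-quartile factors (68), DESeq2 (94), no filter (86), a filter of 10 CPM (103), named miRNAs (80), the 12 libraries of 3, 12 and 24 h (79), no robust estimation (91), and 2 alternatives added after seeing the data, 1 entry of each set with identical counts (87) and the miRNAs of the GC correction without it (63). It was 33 with the 4 libraries compared, 5 against the other DMSO times, 54 with GC correction and 34 to 107 with 1 library left out. The replicate block gave 77, 49 with GC correction, and 3 with the 4 libraries. With the letters crossed, also added later, the 4 libraries gave 88 calls.

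The difference from 24 h passed for 43 entries with GC correction, also with the replicate block, and for 28 to 118 with 1 library left out. That from 3 h passed for 24 by DESeq2, 19 with no filter and 0 to 39 with 1 library left out. The 0 came without PA 3 h A, where the count with PA 3 h B left out was 7. For 61 named entries that passed, 198 of 854 values with 1 library left out no longer passed and 0 reversed, and 250 of 1043 under other settings no longer passed and 11 reversed.

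Reversed against the other DMSO times were chr17_33942 (0.63), miR-1268a (0.20), miR-146a-5p (0.17), let-7i-5p (0.042), miR-100-5p (0.19), miR-29a-3p (-0.25), miR-24-3p (-0.029), miR-29b-3p (-0.16), miR-362-3p (-0.021), miR-30e-5p (-0.11), miR-99a-5p (0.20), miR-411-3p (0.084), miR-424-5p (-0.050), miR-130b-3p (-0.19), miR-4695-5p (0.24), miR-146a-3p (-0.37), let-7i-3p (-0.21), miR-19b-1-5p (-0.67), let-7g-5p (0.067), let-7f-5p (0.076), miR-23b-3p (-0.11) and miR-98-5p (0.29). Entries that had not passed reversed with GC correction, alone and with the replicate block, in miR-29a-3p (-0.039, -0.040), miR-4695-5p (0.050, 0.043), miR-146a-3p (-0.012, -0.0043) and miR-188-5p (0.073, 0.060). They did so with no filter in miR-21-5p (0.094), miR-188-5p (0.0040) and let-7a-5p (0.014), and in miR-23a-5p by DESeq2 (-0.0075) and among the miRNAs of the GC correction (-0.0047). With 1 library left out, values that changed sign ran from -0.18 to 0.20 (miR-21-5p), -0.22 to 0.73 (miR-146a-3p), -0.51 to 0.13 (miR-27b-5p), -0.73 to 1.51 (miR-23a-5p), -0.58 to 0.27 (miR-4458), -3.16 to 0.58 (miR-4500), -0.64 to 0.38 (miR-188-5p), -0.33 to 0.046 (miR-100-5p), -0.64 to 0.0016 (miR-22-3p) and -0.12 to 0.017 (let-7a-5p). The gap by GC share was 0.455, and 0.397 with at least 100 CPM. The causes were not tested.

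Depth limits rare entries most, since DMSO 12 h B held 1032391 counts, and 33 of the 90 averaged under 100 CPM.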
